A study of Sus scrofa with 2 samples.

Results

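The genes of interleukin 1, LIF and IL6 signaling were described in endometrium collected from 2 pregnant Yorkshire pigs at day 18 (YK18), with 1 RNA-seq library per animal. The 10 genes are the cytokines IL1B, LIF and IL6, the receptor chains IL1R1, IL1RAP, LIFR, IL6R and IL6ST, and STAT3 and SOCS3 downstream of them. Genes were found through the RefSeq accessions of the listed transcripts, with the version number ignored, and the rows of a gene were summed. Of the 10 genes, 8 were matched to 11 listed rows, out of 11063 genes with a matched symbol. IL1R1 and LIFR were matched to no row and are not described further, though rows of theirs may be among those not matched to a symbol. The rule names the genes by function and uses no measured value, although the genes were chosen with earlier results of these data known.

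The pigs were of similar age and from one commercial herd, were artificially inseminated, and were slaughtered on day 18. Each uterine horn was flushed with saline before the endometrium was sampled, and total RNA was extracted for the cDNA libraries. Both pigs belong to the same condition, and the labels give no treatment. Endometrium of other days and breeds was not analysed here, so no comparison between conditions was made and each difference given is between 2 pigs. In bulk tissue, fewer cells of a type and less RNA per cell cannot be told apart.

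Interleukin 1 beta binds the receptor IL1R1, which then recruits the accessory chain IL1RAP and passes the signal through MYD88 and the IRAK kinases to NF-kB. In the pig, the elongating conceptus releases a form of interleukin 1 beta of its own, and the endometrium responds to it. LIF and IL6 each bind a chain of their own, LIFR or IL6R, and share the signal chain IL6ST, also called gp130. IL6ST activates JAK kinases and STAT3, and SOCS3 is a STAT3 target that shuts the receptor off again. LIF is known for its part in implantation in several mammals.

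The values are RPKM as deposited, which by name is reads per kilobase of transcript and per 1000000 reads of the library. The length that was divided by is not stated. Low values rise in steps of 1 read, and from these steps totals of 7466979 reads (replicate 1) and 7023108 reads (replicate 2) were found. Reads were then worked out for each row at the smallest length that gave whole reads in both libraries. The true reads of a row may be a multiple of those given. The reads found already sum to 90.2% and 90.3% of these totals, so a multiple can hold for only a small part of them. The median smallest length of mRNA rows above 0 was 216 nt, far shorter than a full mRNA. The RPKM are therefore not read as levels per whole transcript. Of the epithelial markers, 5 of 6 were above 0 in both libraries, with EPCAM at 5106 and 5128 RPKM and KRT8 listed at 0. All 4 listed stromal markers, all 3 listed endothelial markers and 6 of 7 listed leukocyte markers were above 0 in both libraries. The libraries were unlike in genes of other cells. The 5 skeletal muscle genes summed to 345 RPKM (replicate 1) and 3.49 RPKM (replicate 2). IFNG, which the pig conceptus secretes, was at 682 and 89.1 RPKM, and its cell source in these libraries was not tested. The trophectoderm factor CDX2 was at 1.46 and 0.222 RPKM from 7 and 1 reads, and GATA3 and ELF5 are listed at 0. The erythrocyte gene HBB was at 3549 and 8431 RPKM. The 4 listed stromal markers summed to 69450 and 44378 RPKM, with LUM 1.73-fold and COL3A1 1.57-fold higher in replicate 1, while DCN at 211 and 273 RPKM and VIM at 19.5 and 24.9 RPKM were higher in replicate 2. The housekeeping genes EEF1A1 and FTL are listed at 0, as are 26.6% of the matched genes. A row at 0 is therefore reported as listed at 0, not as absent.

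In both pigs the receptor chains stood far above the cytokines. The 3 matched receptor chains were between 277 and 8458 RPKM, and the 3 cytokines were between 0 and 11.7 RPKM. On the scale log2(RPKM + 1), the median of the receptors exceeded that of the cytokines by 8.32 in replicate 1 and by 7.11 in replicate 2, a difference in level of 7.71 ± 0.85 (SD, n = 2). The groups did not overlap, since the lowest receptor value was above every cytokine value. Reads per 1000000 reads, which are not divided by length, gave a difference of 7.07 on the same scale. Of the 8 matched genes, 6 were above 0 in both libraries, IL6 was above 0 in 1 library and STAT3 was listed at 0 in both. Over all 11063 matched genes, 6985 were above 0 in both libraries. Counts of genes above 0, here and in the lists below, stand beside that share and are not read as a result.

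**Figure D1:**
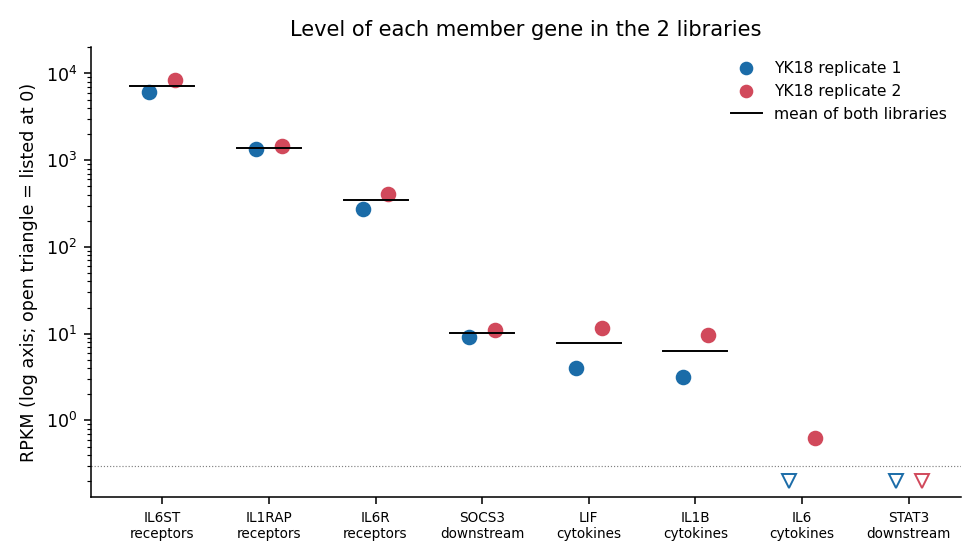
RPKM of the 8 matched genes, on a log axis, in YK18 replicate 1 (blue) and replicate 2 (red), with a line at the mean where both libraries were above 0 and open triangles for values listed at 0. The receptors IL6ST, IL1RAP and IL6R lie between 277 and 8458 RPKM, and SOCS3, LIF, IL1B and IL6 lie at or below 11.7 RPKM.

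IL6ST, the signal chain that LIF and IL6 share, was the most abundant of the genes. Its level was 6047 RPKM (replicate 1) and 8458 RPKM (replicate 2), a mean of 7252 ± 1705 RPKM (SD, n = 2). This placed it at percentile 99.4 of the genes above 0 in both libraries. It was higher in replicate 2 by 1.40-fold (95% exact interval 1.36 to 1.44), from 8443 and 11108 reads. Intervals here cover counting error only and leave out variation between pigs. Reads from PCR are not independent molecules, so the counting error itself may be larger than these intervals show. Of the 514 genes with a mean of at least 1000 RPKM, 12.1% were as far apart between the libraries as IL6ST, on the log2(RPKM + 1) scale, and of all genes with a mean of at least 1 RPKM 30.1%.

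IL6R, the chain that binds IL6 itself, was at 277 RPKM (replicate 1) and 412 RPKM (replicate 2), with a mean of 344 ± 95.8 RPKM (SD, n = 2). The IL6R values did not overlap with those of IL6ST. Per length, IL6ST exceeded IL6R 21.9-fold in replicate 1 and 20.5-fold in replicate 2, so the ratio of the chains was close in the pigs. In reads, with no division by length, the same ratio was 53.8 and 50.5. IL6R was higher in replicate 2 by 1.49-fold (95% exact interval 1.21 to 1.84), from 157 and 220 reads.

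IL1RAP, the accessory chain of the interleukin 1 receptor, was nearly as high in one pig as in the other. Its level was 1339 RPKM (replicate 1) and 1455 RPKM (replicate 2), a mean of 1397 ± 82.2 RPKM (SD, n = 2), at percentile 95.0. It had the smallest ratio of the 6 genes above 0 in both libraries, 1.09-fold (95% exact interval 1.02 to 1.15), and 59.3% of the genes at 1000 RPKM or more, and 74.2% of those at 1 RPKM or more, were as far apart or farther. Of its 3 listed rows, XM_005670069.1 held 1339 and 1454 RPKM. XM_005670067.1 was at 0 and 0.565 RPKM, and XM_005670066.1 was listed at 0 in both libraries. How the authors' counting treated reads that several rows of a gene share is not given in the sources used here, so the rows are not read as isoform levels.

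The cytokines were low, and IL1B and LIF were higher in replicate 2. IL1B, a main inflammatory cytokine, was at 3.20 RPKM (replicate 1) and 9.54 RPKM (replicate 2), from 5 and 14 reads. LIF was at 4.01 RPKM (replicate 1) and 11.7 RPKM (replicate 2), from 8 and 22 reads. In LIF the row XM_005670785.1 held every read, and NM_214402.2 was listed at 0 in both libraries. The means were 6.37 ± 4.48 RPKM for IL1B and 7.87 ± 5.46 RPKM for LIF (SD, n = 2), so the spread between the pigs was 70.3% and 69.3% of the mean.

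IL1B was 2.98-fold higher in replicate 2, with a 95% exact interval of 1.01 to 10.6. LIF was 2.92-fold higher, with an interval of 1.25 to 7.60. Both intervals are wide, since few reads stand behind them. IL1B and LIF were the only genes of the 8 that differed at least 2-fold between the pigs, as a ratio of RPKM + 1, among the 6 with a mean of at least 1 RPKM. With libraries rescaled to a sum of 1000000 neither passed this limit, as the pseudocount of 1 is then larger against the values, while the plain folds were 2.98 for IL1B and 2.93 for LIF. Of all 6474 genes with such a mean, 10.6% were at least 2-fold apart in either direction and 7.48% were at least 2-fold higher in replicate 2. Among the 1966 genes with a mean of 1 to 10 RPKM, the class of IL1B and LIF, that share was 15.1%. With 2 pigs of 1 condition, no test of the difference was made.

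IL6 was at the edge of detection. It was listed at 0 in replicate 1 and was at 0.633 RPKM in replicate 2, from 1 read or a small multiple of it. In replicate 2 this is 0.142 per 1000000 reads (95% exact binomial interval 0.00360 to 0.793). A count of 0 in replicate 1 allows up to 0.402 per 1000000 reads when taken as 3 reads, and the exact interval reaches 0.494. No difference between the pigs was detectable for IL6 at this depth, and no fold is given.

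**Figure D2:**
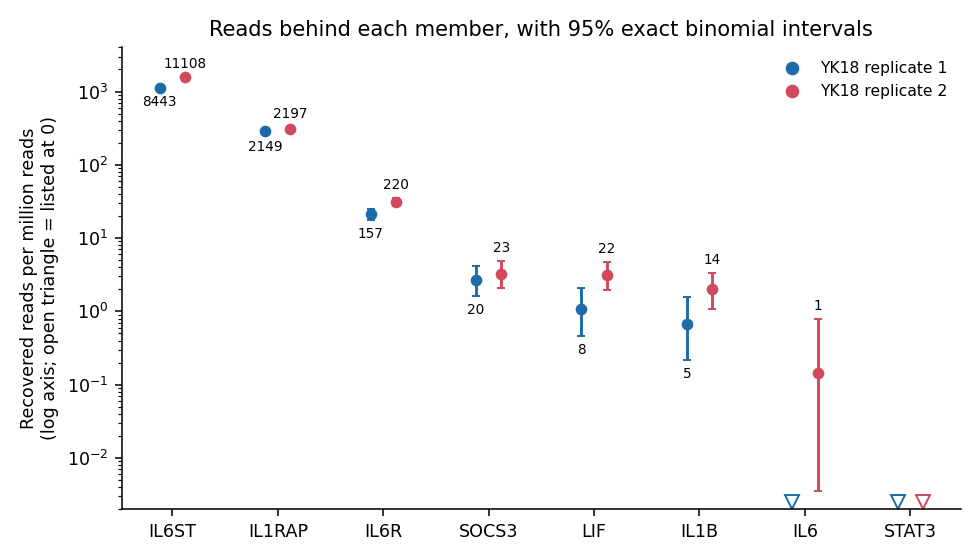
Recovered reads per 1000000 reads of the library, on a log axis, in YK18 replicate 1 (blue) and replicate 2 (red), with 95% exact binomial intervals and the number of reads printed at each point. The intervals of IL6ST are narrow at 8443 and 11108 reads, while those of IL1B, at 5 and 14 reads, overlap each other. Open triangles mark genes listed at 0.

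Downstream, SOCS3, the feedback inhibitor of the receptor, was at the level of the cytokines. It was at 9.08 RPKM (replicate 1) and 11.1 RPKM (replicate 2), a mean of 10.1 ± 1.43 RPKM (SD, n = 2), from 20 and 23 reads. The ratio of 1.22-fold between the pigs had an interval of 0.642 to 2.35, which includes no difference. STAT3, the transcription factor of this pathway, is listed at 0 in both libraries through its only matched row, NM_001044580.1. Only 16072 of 38222 mRNA rows were matched to a symbol, so reads of STAT3 in an unmatched row would not be seen. For this reason, and since housekeeping genes share this zero, no level is given for STAT3.

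With STAT3 taken at its listed 0, the median of the downstream genes differed from that of the receptors by -8.72 on the log2(RPKM + 1) scale, at -8.72 in replicate 1 and -8.71 in replicate 2. Without STAT3 the difference of SOCS3 from the receptors was -6.98, so the size rests on that zero and the direction does not. Against the cytokines the difference with STAT3 was -1.002 ± 0.84 (SD, n = 2), and its sign was not stable. With STAT3 kept at 0 it was 1.38 when the version number was matched, which leaves LIF at a row listed at 0. Without STAT3, SOCS3 alone was above the median of the cytokines by 0.73, and by 1.26 in replicate 1 and 0.20 in replicate 2.

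In order of mean RPKM the 7 genes above 0 in at least 1 library stood as IL6ST, IL1RAP, IL6R, SOCS3, LIF, IL1B and IL6, and STAT3 was not placed. Per length, IL6ST was 5.19-fold above IL1RAP, IL1RAP was 4.06-fold above IL6R, and IL6R was 34.1-fold above SOCS3. The pigs did not overlap at any of these steps. SOCS3 and LIF did overlap, and their order was the opposite in replicate 2. The ranges of LIF and IL1B overlapped as well, though LIF was above IL1B in each library. IL1B was above IL6 without overlap, at 3.20 RPKM in its lower library against 0.633 RPKM. The smallest length that fits was 76 nt for IL6R, 187 nt for IL6ST and 215 nt for the main row of IL1RAP, and between 209 and 295 nt for the cytokines and SOCS3. Such a length, if it is the one used, is far shorter than a full mRNA, so levels per length between genes depend on it. In reads, IL6R was at 157 (replicate 1) and 220 (replicate 2) and SOCS3 at 20 and 23, a far smaller step than per length. IL1RAP was at 2149 and 2197 reads, a larger step above IL6R than per length. In reads, IL6ST was 3.93-fold above IL1RAP in replicate 1 and 5.06-fold in replicate 2.

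All 6 genes above 0 in both libraries were higher in replicate 2. Over all 6985 such genes 59.1% were higher in replicate 2, so this direction was also the more common one. The 6 genes were higher in replicate 2 after each of the 3 rescalings tried, by the 75th percentile, by the median ratio and to an equal sum. Their median log2 ratio of RPKM + 1 was 0.53, against 0.07 over all 6474 genes with a mean of at least 1 RPKM. Leukocyte genes moved the same way. Of 8 leukocyte markers 7 were listed and 6 were above 0 in both libraries, and all 6 were higher in replicate 2. Their summed level was 865 RPKM (replicate 1) and 1346 RPKM (replicate 2), with PTPRC, the pan-leukocyte marker CD45, at 526 and 846 RPKM and S100A9 listed at 0. CSF1R, at 141 reads in each library, was 1.06-fold higher in replicate 2, the same as the median ratio of genes above 0 in both. S100A8 rests on 2 and 5 reads. The part of leukocytes and blood in the values of IL1B, LIF and IL6R was not tested.

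**Figure D3:**
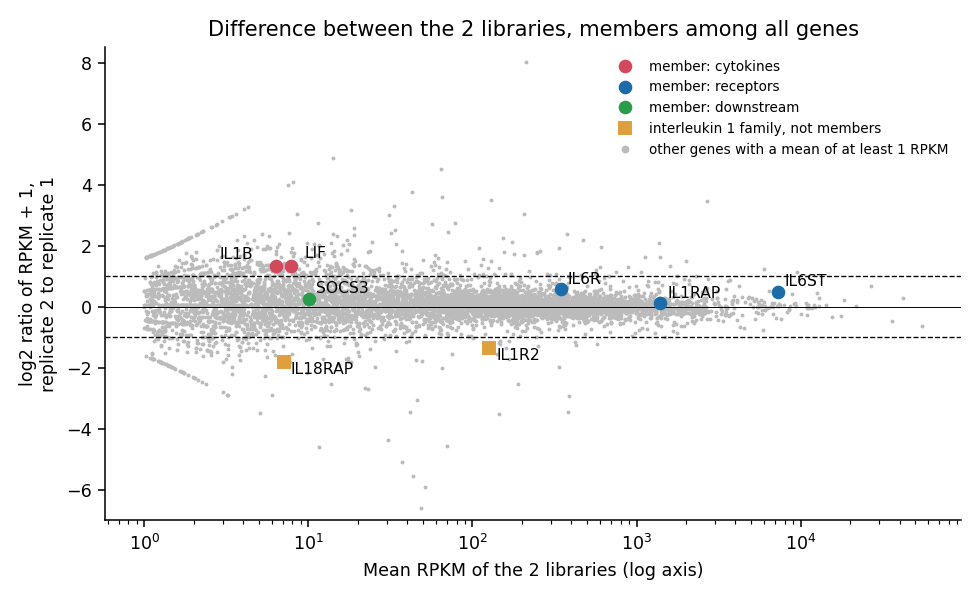
Log2 ratio of RPKM + 1, replicate 2 to replicate 1, against the mean RPKM on a log axis, for genes with a mean of at least 1 RPKM, with dashed lines at 2-fold. IL1B and LIF lie above the upper line at 1.33 and 1.34, SOCS3 and the receptors lie between the lines, and IL1R2 and IL18RAP, which are not among the 10 genes, lie below the lower line at -1.34 and -1.81.

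The other interleukin 1 family genes, CASP1 included, were split in direction. Of 16 genes 9 were matched and 6 were above 0 in both libraries, 3 of them higher in replicate 2 (IL1A, IL1B2 and CASP1) and 3 higher in replicate 1 (IL1R2, IL18R1 and IL18RAP). None was at least 2-fold higher in replicate 2, where the share over all genes was 7.48%, and 2 were at least 2-fold higher in replicate 1, where it was 3.17%. Their median log2 ratio was -0.22 over 6 genes. One of the 2 was IL1R2, a decoy receptor that binds interleukin 1 without passing on a signal, at 182 RPKM (replicate 1) and 71.2 RPKM (replicate 2), 2.56-fold higher in replicate 1 (95% exact interval 1.47 to 4.67) from 49 and 18 reads. The other was IL18RAP, the accessory chain of the interleukin 18 receptor, at 11.6 and 2.60 RPKM from 19 and 4 reads.

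IL1R2 and IL1RAP thus stood in different proportions in the pigs. Per length, IL1RAP exceeded IL1R2 7.34-fold in replicate 1 and 20.4-fold in replicate 2. In reads the same ratio was 43.9 and 122, since the smallest length that fits was 36 nt for IL1R2 and 215 nt for IL1RAP. IFNG, CDX2 and the skeletal muscle and stromal sums given above were also higher in replicate 1, and their part in this difference was not tested. IL18R1, the binding chain of the interleukin 18 receptor, was at 87.4 and 62.1 RPKM. CASP1, the protease that cuts the interleukin 1 beta precursor to its active form, was at 172 RPKM (replicate 1) and 219.7 RPKM (replicate 2).

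Other interleukin 1 ligands were as low as IL1B. IL1A was at 2.05 and 3.27 RPKM from 4 and 6 reads. IL1B2, a second interleukin 1 beta gene of the pig that the conceptus is known to express, was at 1.05 and 1.12 RPKM from 1 read in each library. IL1B and IL1B2 are closely related copies, so reads could have been split between them or left out by the counting, and both values are uncertain. IL18, IL18BP and IL33 are listed at 0 in both libraries.

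In the chain from the interleukin 1 receptor to NF-kB, 16 of 23 genes were matched and 12 were above 0 in both libraries. None was at least 2-fold apart, against 10.6% of all genes, and the median log2 ratio was 0.35 over 12 genes. CHUK, a catalytic kinase of the IKK complex, was highest at 1250 and 1376 RPKM. NFKBIA, the inhibitor that holds NF-kB in the cytoplasm and is also an NF-kB target, was at 479.7 RPKM (replicate 1) and 637 RPKM (replicate 2). The kinase IKBKB was at 428 and 541 RPKM, MAP3K7, the kinase TAK1, at 268 and 347 RPKM, and its partner TAB1 at 265 and 232 RPKM. MYD88, IRAK1 and IRAK4, which bind next to the receptor, are listed at 0 in both libraries.

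In the rest of the IL6 family, the matched ligands were at 12.5 RPKM or below, and 3 receptors were at 213 RPKM or above in both libraries. Of 13 genes 9 were matched and 7 were above 0 in both libraries. Of the 6 genes with a mean of at least 1 RPKM, only IL27 was at least 2-fold apart, against 10.6% of all genes. It was at 1.17 and 3.75 RPKM from 1 and 3 reads. The median log2 ratio was 0.30 over the 6 genes. IL11RA, the receptor of IL11, was at 994 and 1118 RPKM, IL27RA at 319 and 349 RPKM, OSMR, the oncostatin M receptor, at 213 and 295 RPKM, and IL31RA at 27.3 and 37.2 RPKM. IL6ST, the chain that IL11RA, OSMR and IL27RA signal with, was above each of them in both libraries, from 6.08-fold above IL11RA in replicate 1 to 28.7-fold above OSMR in replicate 2. In reads the ratios ran from 8.18 for IL11RA in replicate 1 to 49.8 for IL27RA in replicate 2, so which receptor lay farthest below IL6ST depended on the lengths. Of the ligands, CNTF was at 11.3 and 12.5 RPKM and OSM at 0.903 and 0.320 RPKM, while the receptor chain CNTFR and the ligand subunit EBI3 are listed at 0.

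In the JAK and STAT chain, STAT2, JAK1 and JAK2 were each over 1000 RPKM in both libraries. Of 24 genes 20 were matched, 15 had reads in both libraries and 4 are listed at 0. STAT2, which type I interferons activate, was at 3730 RPKM (replicate 1) and 3299 RPKM (replicate 2). JAK2 was at 1675 and 1777 RPKM and JAK1 at 1409 and 1354 RPKM, both kinases of the IL6ST chain. The other kinases of the list were low, with TYK2 at 5.88 and 3.48 RPKM from 9 and 5 reads and JAK3 listed at 0. PIAS1, an inhibitor of STAT proteins, was at 370 and 350.4 RPKM. Of the 14 genes with a mean of at least 1 RPKM, only SOCS7 was at least 2-fold apart, against 10.6% of all genes. It was at 1.38 and 5.14 RPKM from 2 and 7 reads. The median log2 ratio was 0.06 over the 14 genes.

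Of the SOCS inhibitors, SOCS6 was highest at 63.4 and 72.3 RPKM, 6.98-fold above SOCS3 in replicate 1 and 6.51-fold in replicate 2. In reads the same ratio was 57.7 and 53.8, since the smallest length that fits was 2437 nt for SOCS6 and 295 nt for SOCS3. SOCS2, an inhibitor of growth hormone signaling, was at 8.44 and 9.37 RPKM, next to SOCS3 per length. Its reads were 47 and 48, against 20 and 23 for SOCS3. SOCS1 was at 1.03 and 1.57 RPKM, and SOCS5 is listed at 0 in both libraries.

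Among 25 known targets of STAT3 and NF-kB, 23 were matched, 15 had reads in both libraries and 6 are listed at 0. Over the 16 with a mean of at least 1 RPKM, 3 were at least 2-fold higher in replicate 2, against 7.48% of all genes, none was at least 2-fold higher in replicate 1, against 3.17%, and the median log2 ratio was 0.32. The 3 genes were JUNB, an AP-1 factor, at 32.9 RPKM (replicate 1) and 85.9 RPKM (replicate 2), the adhesion molecule ICAM1 at 15.8 and 34.8 RPKM, and LBP, which is listed at 0 in replicate 1 and was at 2.48 RPKM from 2 reads in replicate 2. JUNB was 2.61-fold higher (95% exact interval 2.34 to 2.92) from 461 and 1132 reads, and ICAM1 2.20-fold higher (1.50 to 3.28).

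VCAM1, a leukocyte adhesion molecule, was at 1345 and 2539 RPKM. PTGS2, the inducible cyclooxygenase of prostaglandin synthesis, was at 1316 RPKM (replicate 1) and 1621 RPKM (replicate 2), far above IL1B and SOCS3 in the same libraries. HIF1A was at 1805 and 1802 RPKM, FGL2 at 679.5 and 679 RPKM and TIMP1 at 392 and 357 RPKM. CXCL8, CCL20, LCN2, SAA3, CEBPB and ZFP36 are listed at 0 in both libraries.

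**Figure D4:**
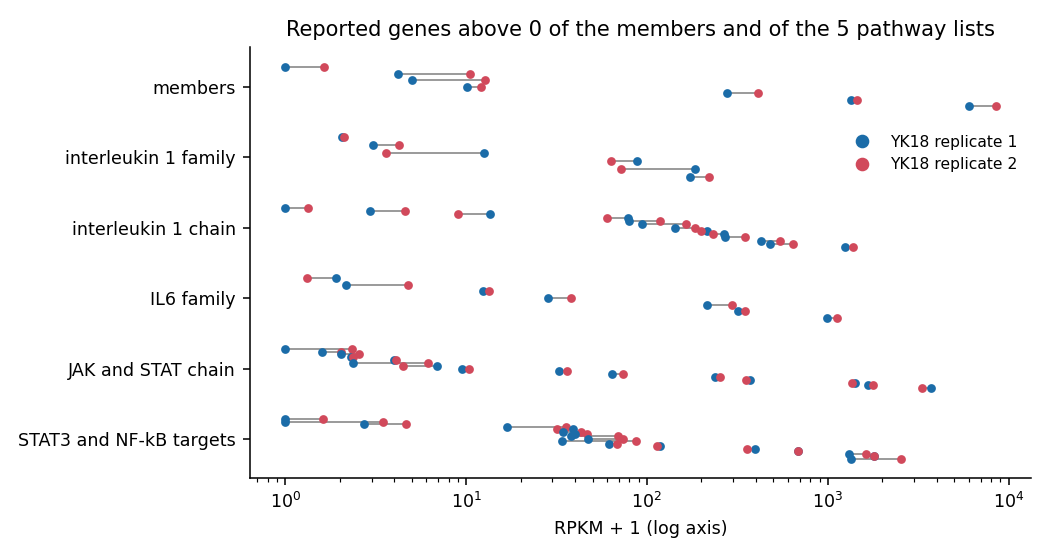
RPKM + 1 on a log axis of each reported gene above 0 among the 10 genes and the 5 lists, with replicate 1 in blue, replicate 2 in red and a grey line joining the libraries of a gene. Within the IL6 family, the JAK and STAT chain and the 10 genes, some receptors and kinases reach over 1000 RPKM and cytokines lie at 12.5 RPKM or below.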

How the data were processed

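RNA-seq libraries of endometrium from 2 Yorkshire pigs (YK18) were used. The authors counted reads with HTSeq 0.6.1 and deposited RPKM values, 1 column per library. The aligner and genome build are not given in the sources used here. RPKM is not a count, so no count model was fitted. Symbols came from RefSeq of Sscrofa11.1, which matched 16072 of 38222 mRNA rows (42.0%), and coordinates were not used. Library totals and reads were worked out from the steps of the RPKM, with lengths up to 20000 nt, and whole reads were found for 100% of 25584 rows above 0. They sum to 90.2% and 90.3% of the library totals. The method was tested on simulated data. Shares of reads have Clopper-Pearson intervals and ratios between libraries exact conditional binomial intervals, both at 95%. Ratios used log2(RPKM + 1) over genes with a mean of at least 1 RPKM.

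The members and lists were chosen with earlier results of these data known. From each list, the 5 genes with the highest mean and genes of at least 5 RPKM at least 2-fold apart were named. IL1B2, IL27, OSM, LBP, TYK2, EEF1A1, FTL, marker genes, other SOCS genes and genes listed at 0 were named after their values were seen. In the JAK and STAT list, 1 gene is counted but not reported here. Alternatives were other pseudocounts, filters, scalings, row sums and version matching, and leaving out either replicate. Python 3.11.15, pandas 2.3.3, numpy 2.4.6, scipy 1.17.1 and matplotlib 3.10.9 were used.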

Additional observations from a re-analysis of the deposited data

How the results depend on the processing

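No paired analysis was possible because both libraries belong to 1 condition. The receptors stayed above the cytokines under every alternative run. The log2 difference of 7.71 was 10.3 with the version number matched, which leaves LIF at a row listed at 0 and IL1RAP without a row, and ran from 7.11 to 8.32 with either replicate left out. The downstream genes against the cytokines, at -1.002, turned to 0.60 for genes of 1 RPKM or more, to 1.38 with the version number matched and, in an alternative chosen after seeing the data, to 0.73 without STAT3. It was -2.49 with a pseudocount of 0.1 and -4.13 with 0.01, and ran from -1.60 to -0.41 with either replicate left out. With libraries rescaled to a sum of 1000000 it was -0.38, and 0.015 in replicate 1. In reads per 1000000 reads it was -0.17, and 0.20 in replicate 1. Its sign thus depends on the zero of STAT3, on the row matched to LIF and, in replicate 1, on the scaling. The downstream genes stayed below the receptors throughout. From -8.72, that difference moved to -10.4 with a pseudocount of 0.1, -12.1 with 0.01, -6.98 for genes of 1 RPKM or more and likewise without STAT3, -7.48 with libraries rescaled to a sum of 1000000, -7.24 in reads per 1000000 reads and -8.87 with the version number matched, and ran from -8.72 to -8.71 with either replicate left out. The 2 genes at least 2-fold apart became 0 after rescaling to a sum of 1000000, where the pseudocount is larger against the values and the plain folds were still 2.98 and 2.93. Of the 6 genes above 0 in both libraries, 3 were at least at 10 RPKM in both. The 5 reads of IL1B and 8 reads of LIF in replicate 1 limit their ratios, and 2 pigs give only a rough spread.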
